A study of Mus musculus with 6 samples.

Results

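The members described here are 6 imprinted genes that lie in 3 loci of mouse chromosome 2: *H13* with *Mcts2*, *Blcap* with *Nnat*, and *Gnas* with *Nespas*. They were chosen by name, and all CpG sites whose closest transcription start site (TSS) belonged to one of them were taken, at any distance. *Nespas* was listed under its other symbol, *Gnasas1*, and was matched by its gene identifier, ENSMUSG00000086537. Counting sites read at least 10 times in every sample, the 6 genes held 337 of the 681804 sites of the series. Without *Nespas* they held 136, and at a minimum of 5 reads they held 459.

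DNA methylation was measured by reduced representation bisulfite sequencing (RRBS), which reads CpG-rich fragments of the genome and gives, at each CpG site, the share of reads that kept a cytosine. The cells were germline stem (GS) cells, cultured spermatogonia that keep the activity of spermatogonial stem cells. All 6 samples carried the genotype DBA/Tg14(act-EGFP-OsbY01), from transgenic mice with ubiquitous green fluorescence that had been bred into a DBA/2 background, and all had been frozen for 6 months. The 3 Space samples were stored in the International Space Station, and the 3 Ground samples in a freezer on Earth. After thawing, the cells were grown with GDNF and FGF2 on mouse embryonic fibroblasts, and the share of fibroblast DNA in the samples was not measured. The cells were passaged in culture before methylation was read, so the levels are not those of freshly thawed cells. For methylation the sources speak of experiments and do not say whether the samples of a group were separate lines, so p-values measure only the spread between these samples, which may be technical. At the sites of the 6 genes the coverage was 10 to 81 reads, with a median of 26 to 33 per sample.

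An imprinted gene is expressed from the maternal or the paternal copy only, and the choice is carried by DNA methylation set in the egg or the sperm. At *Mcts2*, *Nnat*, and the *Gnasxl*, *Nespas*, and exon 1A promoters of the *Gnas* locus, the mark is set in the egg, so that somatic tissue carries a methylated maternal copy and an unmethylated paternal copy. The *Nesp* promoter has the opposite pattern in somatic tissue, where methylation lies on the paternal copy. This methylation is not counted here among the marks set in the egg or the sperm. The marks are erased in the fetal germline and set anew in each sex, and the male germline leaves the egg-type marks unmethylated. No somatic sample was analysed here, so the levels below stand without such a reference.

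*Mcts2* and *Nnat* lie inside introns of other genes: *Mcts2*, a retrogene for a translation factor, in *H13*, which encodes a signal peptide peptidase, and *Nnat*, which encodes the membrane proteolipid neuronatin, in *Blcap*. *Gnas* has several starts. From the first to the last, they give the secretory protein NESP55 (*Nesp*), the large G protein subunit XLαs (*Gnasxl*), the noncoding exon 1A transcript, and, from exon 1, the stimulatory G protein subunit Gsα. *Nespas* runs antisense to *Nesp*. In the mm39 build used for the table, the listed starts were chr2:152511381 for *H13*, 152528955 for *Mcts2*, 157401998 for *Nnat*, 157413194 for *Blcap* (minus strand), 174126113 for *Gnas*, and 174137229 for *Nespas* (minus strand).

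The promoters that the results turn on are shown as the RefSeq sequences of build GRCm38.p6, from 250 bases before to 50 bases after an annotated start. Capitals mark the CpGs that were measured with at least 10 reads in all samples, placed by their distance from the gene's start. The windows are chr2:152686898-152687197 for *Mcts2*, chr2:157559828-157560127 for *Nnat*, chr2:174284070-174284369 for *Nesp*, and chr2:174329756-174330055 for *Gnas* exon 1, all on the plus strand. The RefSeq start used for *Mcts2* lies 113 bases after the listed one.
Mcts2: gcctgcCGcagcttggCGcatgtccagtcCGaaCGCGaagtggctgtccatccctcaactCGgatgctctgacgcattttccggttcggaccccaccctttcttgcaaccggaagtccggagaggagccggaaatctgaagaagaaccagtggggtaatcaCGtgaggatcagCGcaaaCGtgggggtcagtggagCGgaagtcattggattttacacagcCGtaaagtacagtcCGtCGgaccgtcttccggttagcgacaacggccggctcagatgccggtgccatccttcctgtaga
Nnat: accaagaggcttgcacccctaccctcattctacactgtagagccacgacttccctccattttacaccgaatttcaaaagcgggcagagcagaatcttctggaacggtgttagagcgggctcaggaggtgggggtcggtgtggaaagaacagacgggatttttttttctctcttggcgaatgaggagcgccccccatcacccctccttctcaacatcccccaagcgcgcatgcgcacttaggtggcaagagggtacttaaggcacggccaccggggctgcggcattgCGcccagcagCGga
Nesp: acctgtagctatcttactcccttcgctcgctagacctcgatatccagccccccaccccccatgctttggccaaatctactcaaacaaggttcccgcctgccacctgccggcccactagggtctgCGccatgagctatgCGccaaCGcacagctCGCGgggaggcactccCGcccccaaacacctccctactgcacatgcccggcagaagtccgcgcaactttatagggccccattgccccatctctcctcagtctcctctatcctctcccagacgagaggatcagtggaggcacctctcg
Gnas exon 1: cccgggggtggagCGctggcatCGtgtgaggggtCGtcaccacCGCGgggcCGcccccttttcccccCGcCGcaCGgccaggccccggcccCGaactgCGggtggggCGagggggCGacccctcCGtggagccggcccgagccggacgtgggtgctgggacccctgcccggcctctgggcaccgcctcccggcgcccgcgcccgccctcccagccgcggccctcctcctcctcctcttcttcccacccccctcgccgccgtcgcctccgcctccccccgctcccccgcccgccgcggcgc

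In the *Mcts2* window 13 of 25 CpGs were measured, and their level was 3.06% ± 1.21 in Space GS cells and 1.12% ± 0.470 in the Ground samples (SD, n = 3). This window leaves out part of the sites before the listed start. Over all 21 sites around that start the groups overlapped, at 2.18% ± 1.22 and 1.54% ± 0.969. The *Nesp* window had 6 of 16 CpGs measured, at 0.242% ± 0.418 in Space GS cells and 2.56% ± 2.46 in the Ground samples. The exon 1 window had 14 of 40, at 2.22% ± 1.18 and 3.03% ± 1.91. In the *Nnat* window only the last 2 of 17 CpGs were measured, at 3.82% ± 2.03 and 2.78% ± 4.81. The other measured sites of *Nnat* lie outside this window, on either side of it. The letters TGCCGC, which the zinc finger protein ZFP57 binds when methylated, occurred once on either strand in the *Mcts2* window and once in the *Nnat* window. They occurred 0 times in the promoter sequences of *H13*, *Blcap*, *Nesp*, exon 1A, and exon 1. Of all 32851 promoter sequences of the table, 11.6% held them. Whether the members differ from this share was not tested. The match in *Mcts2* contained 1 measured CpG, 131 bases before the listed start, with a mean level of 1.04% over the 6 samples. A promoter sequence was given for 5 of the 6 genes, and none for *Nespas*. Those of *H13*, *Blcap*, and *Gnas* exon 1A held 0 measured CpGs.

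The 6 genes showed low and high methylation with almost nothing in between. Of the 337 sites, 309 had a mean level under 10%, 27 had a mean level over 80%, and 1 lay between, a site 1126 bases after the *Nesp* start with 10.3%. Among all sites of the series, 77.4% were under 10%, 16.9% over 80%, and 5.70% in between. At the lower minimum of 5 reads, 408 of 459 sites were under 10%, 47 over 80%, and 4 in between.

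**Figure D1:**
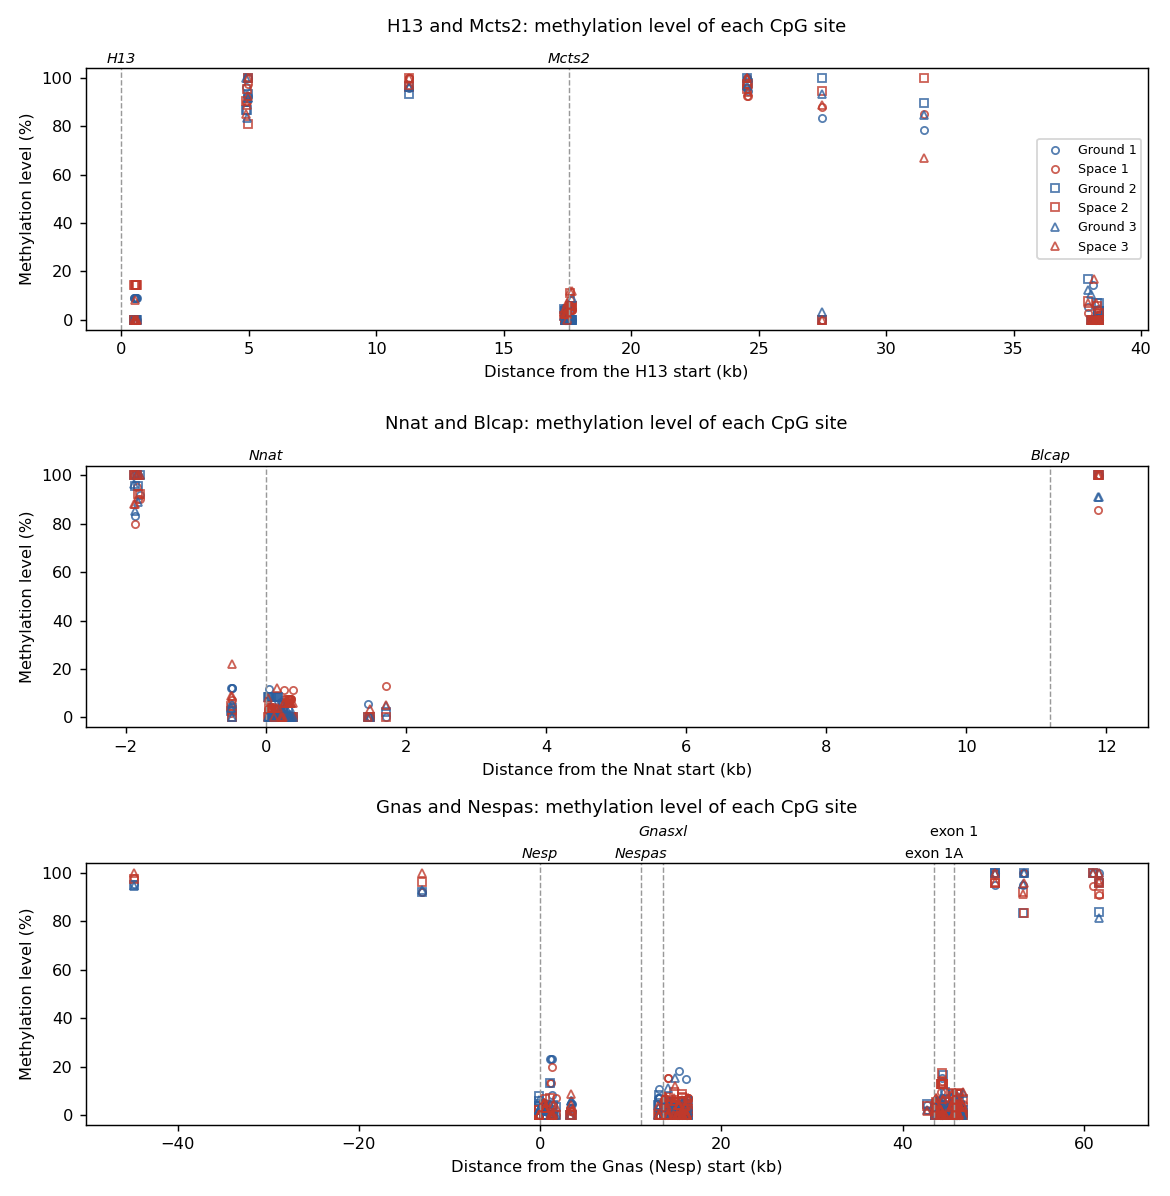
Methylation level (%) of each CpG site with at least 10 reads in all samples, against its distance from the start of *H13*, *Nnat*, or *Gnas* (kb), with 1 point per sample (red, Space; blue, Ground; circle, square, and triangle for replicates 1, 2, and 3) and dashed lines at annotated starts. Sites near the starts of *H13*, *Mcts2*, *Nnat*, *Nesp*, *Gnasxl*, exon 1A, and exon 1 and in the last *H13* exon lie near 0, and high sites lie on either side of *Mcts2*, before *Nnat*, *Blcap*, and *Nesp*, and after exon 1.

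Reads were pooled over the 309 low sites to compare the samples. Their level was 2.10%, 2.55%, and 2.50% in Space GS cells 1, 2, and 3, and 2.19%, 1.67%, and 1.79% in Ground GS cells 1, 2, and 3. Over the 27 high sites it was 94.6%, 95.6%, and 95.6% in Space GS cells and 95.7%, 96.0%, and 94.9% in Ground GS cells. The groups overlapped in both sets. The exact permutation p was 0.2 for the low sites and 0.5 for the high sites. As the sites were sorted by level, these values are a description.

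At *H13*, 7 sites lay in an intron, 493 to 618 bases after the start, and 4 sites lay 4913 to 4962 bases after it, in an intron. The first stretch had 0%, 12.2%, and 1.19% in Space GS cells 1, 2, and 3, and 9.09%, 0%, and 0% in Ground GS cells. The 3 samples at 0 had 14, 17, and 12 reads at each of these sites. Counted by reads, since calls of neighbouring sites can come from the same read, a count of 0 allows levels of up to 21.4%, 17.6%, and 25%, from counting error only. The stretch in the intron farther on had 94.2%, 91.7%, and 91.7% in Space GS cells and 95.2%, 91.7%, and 91.7% in Ground GS cells. Thus the promoter side was low and the intron high in every sample, 88.9 ± 5.36 points apart (SD, n = 6; exact sign-flip permutation test, two-sided, p = 0.031, the smallest that 6 samples allow). Adjusted over the 4 genes tested in this way, the p was 0.0625.

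Pooling the 11 sites of *H13* gave another picture. Their pooled level was 53.0% ± 4.55 in Space GS cells and 40.9% ± 15.4 in the Ground samples, a difference of 12.1 points. Within the stretches the difference was 1.45 points near the start (exact permutation test, two-sided, p = 0.7) and -0.32 points in the intron (exact permutation p = 1). The high stretch supplied 61.4%, 46.2%, and 56.25% of the calls in Space GS cells 1, 2, and 3, and 57.5%, 33.5%, and 36.4% in Ground GS cells. The pooled level was lowest in the samples with the lowest shares, Ground GS cells 2 (30.7%) and Ground GS cells 3 (33.3%).

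*Mcts2* starts 17574 bases after the *H13* start in this table, and 21 sites lay around its start, the first of them 191 bases before it. Their level was 1.28%, 1.70%, and 3.57% in Space GS cells and 1.42%, 2.56%, and 0.638% in Ground GS cells, over 562 to 784 calls per sample. The groups overlapped (difference 0.640 points, exact permutation p = 0.6). The sites around this promoter were high: 2 sites 6305 and 6287 bases before the start had 97.6% in the mean of all samples, and 3 sites 6951 to 6995 bases after it had 96.4% ± 1.79 in Space GS cells and 98.0% ± 0.965 in the Ground samples. A site at 13911 bases had 84.1%.

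Within this high part 1 site stood apart. At chr2:152538863, in an *H13* intron, the level was 0% in 5 samples and 3.33% in Ground GS cells 3, while a site 14 bases away, at chr2:152538877, had between 83.3% and 100% in the 6 samples. At least 26 reads covered each of these sites in every sample, and the coverage of the 2 sites was equal in each sample. Sites were checked as CG in the reference genome only. Whether these cells, of a DBA/2 background, carry a CG at the first position was not tested.

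Farther on, the last exon of the longest *H13* transcript held another low stretch, 24 sites from 37931 to 38369 bases after the *H13* start. The level was 1.48%, 0.594%, and 0.858% in Space GS cells and 1.09%, 3.05%, and 1.37% in Ground GS cells. The closest listed start was that of *Mcts2*, at least 20357 bases away. Of the 19266 regions of the series that lay over 10 kb from the closest listed TSS, 24.9% had a level under 10%. Since these 24 sites are counted with *Mcts2*, the 30 sites after its start had a mixed level of 19.4% in the mean of all samples, 17.5 ± 2.72 points above its promoter (SD, n = 6; exact sign-flip permutation p = 0.031, adjusted p = 0.0625). This difference was 27.1 points at a coverage of at least 20 and 14.4 points with the mean of the site levels.

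At *Nnat*, 29 sites from 494 bases before to 385 bases after the start had 4.21%, 1.08%, and 5.20% in Space GS cells and 3.80%, 2.85%, and 1.64% in Ground GS cells. The groups overlapped (difference 0.734 points, exact permutation p = 0.7). Farther into the gene, 3 sites at 1459 to 1724 bases, in an exon, were low too, with 3.30% ± 3.43 and 1.74% ± 1.01. Between 385 and 1459 bases after the start no site had enough reads. From 1883 to 1799 bases before the start, in a *Blcap* exon, 5 sites stood at 91.0%, 96.9%, and 95.3% in Space GS cells and 95%, 98.2%, and 94.1% in Ground GS cells. Hence the border between high and low methylation lay between 1799 and 494 bases before *Nnat* in both groups. The sites after the promoter differed from it by -0.61 ± 2.08 points (SD, n = 6; exact sign-flip permutation p = 0.5).

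*Blcap* encodes a small protein named for its loss in bladder cancer, and 2 sites were its only ones with enough reads. They lay 679 and 705 bases before its first start and had 93.1%, 100%, and 100% in Space GS cells and 100%, 100%, and 90.9% in Ground GS cells, over 22 to 36 calls. The difference was 0.731 points (exact permutation p = 1). At a minimum of 5 reads there were 4 sites, with a lower level of 76.2% ± 4.45 in the Space and 79.6% ± 8.02 in the Ground samples. Of the shorter *Blcap* transcripts, 3 start 4913 to 4943 bases into the gene and 1 starts 11267 bases into it, near *Nnat*. The 24 sites around the first of these places were listed under *Gm57477*, not under *Blcap*. Those sites stood at 1.44% ± 0.365 in Space GS cells and 1.77% ± 1.33 in the Ground samples, so that they were low where the 2 sites before the first start were high.

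At the *Gnas* locus the sites measured near the starts of *Nesp*, *Gnasxl*, exon 1A, and exon 1 were low. Around *Nesp*, 18 sites stood at 1.55%, 1.78%, and 2.75% in Space GS cells and 2.08%, 2.89%, and 1.66% in Ground GS cells (difference -0.19 points, exact permutation p = 0.6). A further 13 sites 1126 to 3474 bases after the start had 1.97% ± 1.47 and 2.82% ± 2.28, and the groups overlapped there too (exact permutation p = 0.7). The sites after the start differed from those around it by 0.273 ± 1.94 points (SD, n = 6; exact sign-flip permutation p = 0.781).

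The 201 sites counted with *Nespas* all lay before its start on the minus strand, from 1931 to 50582 bases away. This places them near the later starts of *Gnas* and, for 7 sites, beyond these starts. No site with at least 5 reads in all samples lay at the *Nespas* start itself. At *Gnasxl*, 70 sites stood at 2.73%, 2.16%, and 2.79% in Space GS cells and 2.52%, 1.84%, and 1.74% in Ground GS cells. The sites closest to the *Gnasxl* start lay 439 bases before it and 140 bases after it. At exon 1A, 48 sites stood at 2.39%, 5.16%, and 1.93% in Space GS cells and 2.07%, 1.23%, and 1.77% in Ground GS cells. Counted from the *Nesp* start, the first of them lay at 42635 bases and the next at 43516 bases. An exon 1A start at 43448 bases lies between them and was not read itself. At exon 1, 76 sites stood at 1.16%, 2.61%, and 1.93%, and 1.51%, 0.961%, and 2.30%. The groups overlapped near all 3 starts, and Space GS cells 2 was the highest sample at exon 1A and exon 1.

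Beyond these starts the locus was high. The 7 sites 50222 to 61698 bases after the *Nesp* start, in introns and exons shared by the *Gnas* transcripts, had 97.7%, 93.8%, and 97.1% in Space GS cells and 97.9%, 94.9%, and 97.3% in Ground GS cells. Retained-intron transcripts of *Gnas* start among these sites, 57384 and 60330 bases after the *Nesp* start. The 2 sites 44832 and 13035 bases before *Nesp* had 95.7%, 97.1%, and 100% in Space GS cells and 94.2%, 93.8%, and 94.0% in Ground GS cells. Here the groups did not overlap, with a difference of 3.61 points over 64 to 83 calls per sample (exact permutation p = 0.1). The 2 sites before *Mcts2* did not overlap either, with 98.9% ± 0.996 and 96.4% ± 1.46, a difference of 2.46 points (exact permutation p = 0.1). A p of 0.1 is the smallest that 3 against 3 samples allow, and over the 13 values of gene and position tested both became 0.65. Of all 39507 such values in the series with at least 2 sites, 9.35% did not overlap between the groups. The other 11 values overlapped between the groups, and their exact permutation p ranged from 0.3 to 1.

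Sites at most 100 bases apart were joined to regions of at least 3 sites, and each region of the series was tested with a quasi-binomial model. The model took the methylated and unmethylated calls summed over the sites, so a read that covers several sites counts once at each of them. The 6 genes held 25 regions with 313 sites, of which 22 were low and 3 high. None had an adjusted p under 0.05 (quasi-binomial test with Benjamini-Hochberg adjustment over 49134 regions), as for 0% of all regions. The smallest adjusted p was 0.864. Of the 25 regions, 12 were higher and 13 lower in the Space samples. The median absolute difference was 1.17 points, against 1.03 points over all regions of the series.

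**Figure D2:**
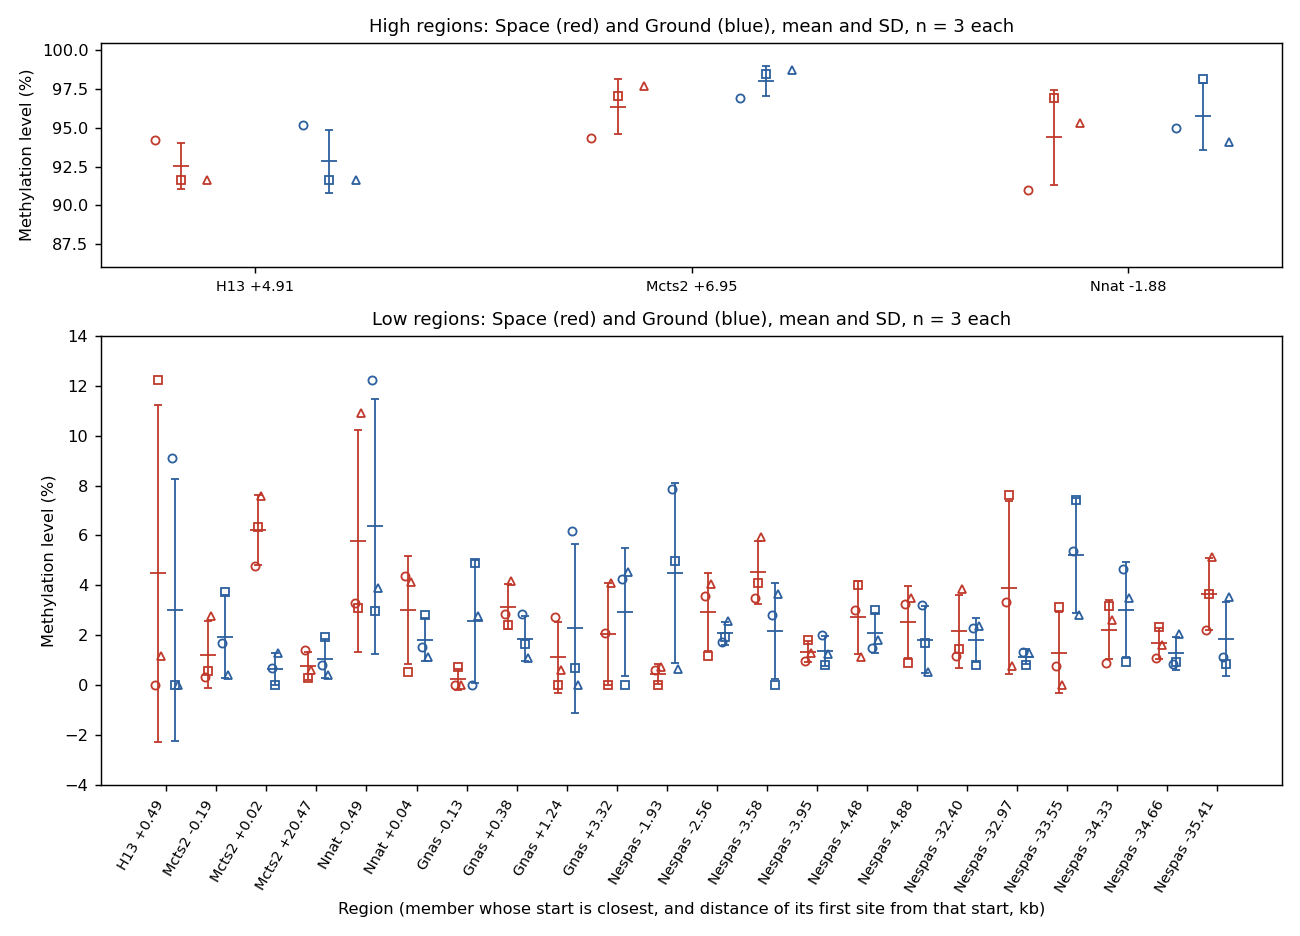
Methylation level (%) of the 25 regions, named by the gene whose start is closest and the distance of the first site from it (kb); symbols are samples (circle, square, and triangle for replicates 1, 2, and 3), and bars the mean and SD of the 3 Space (red) and 3 Ground (blue) samples. The 3 high regions lie between 91.0% and 98.7% and the 22 low regions at 12.2% or less in every sample; the axis of the upper panel does not start at 0.

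Unadjusted, 4 of the 25 regions (16%) had a p under 0.05, against 5.65% of all regions. The levels of the groups did not overlap in 1 of the 25 (4%), against 9.25% of all regions. The first share was above the background and the second below it, and the 25 regions come from the same 6 samples and are not independent. Without Ground replicate 2, 1 of the 25 regions had a p under 0.05, against 5.51% of all regions.

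The smallest p belonged to 7 sites in the *Mcts2* exon, the first of them 24 bases after its start. Their level was 4.76%, 6.35%, and 7.56% in Space GS cells and 0.680%, 0%, and 1.30% in Ground GS cells, so that all Space samples were higher, by 5.57 points in the mean (quasi-binomial p = 0.00376, adjusted p = 0.864). With the median over the sites as each sample's value, an alternative chosen after seeing the data, the quasi-binomial p was 0.0296 (adjusted p = 0.695). The 26 reads of Ground GS cells 2 allow a level of up to 11.5%. The 14 sites just before the start, from 191 to 77 bases, did not share this: they had 1.23% ± 1.35 in Space GS cells and 1.94% ± 1.66 in the Ground samples. Across the whole promoter, with these sites and the 7 after the start together, the groups overlapped.

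The other 3 regions lay at *Gnas*. A region of 31 sites at exon 1A, chr2:174170198-174170510, had 3.33%, 7.64%, and 0.782% in Space GS cells and 1.35%, 0.798%, and 1.27% in Ground GS cells (adjusted p = 0.864). A region of 6 sites 126 to 81 bases before *Nesp* was lower in Space GS cells, with 0%, 0.725%, and 0% against 0%, 4.90%, and 2.78% (adjusted p = 0.864). Near *Gnasxl*, 5 sites stood at 0.606%, 0%, and 0.741% in Space GS cells and 7.86%, 4.96%, and 0.667% in Ground GS cells (adjusted p = 0.864). In each of these 3 regions the groups overlapped, and 2 samples held most of the methylated reads.

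The other 18 low regions differed by -3.90 to 2.36 points, with an unadjusted p of 0.0933 to 0.984, and the 3 high regions by -1.68 to -0.32 points, with an unadjusted p of 0.362 to 0.837. The fall of -3.90 points belonged to 3 sites at the end of exon 1A, with 0.781%, 3.12%, and 0% in Space GS cells and 5.38%, 7.41%, and 2.83% in Ground GS cells. The exon 1A region that was higher in Space GS cells lies just before it. Before *Nnat*, 3 sites 494 to 476 bases from the start had 3.31%, 3.09%, and 10.9% in Space GS cells and 12.2%, 2.98%, and 3.89% in Ground GS cells, with 1 sample of each group apart from the others.

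The methylated reads were then followed site by site. In the exon 1A region, the last 20 sites, from chr2:174170376 to 174170510, had the same coverage from site to site within 1 read. Space GS cells 2 had 3 methylated reads of 23 at 18 of the 20 sites, and Space GS cells 1 had 1 of 21 at 18 of them. In the other 4 samples at least 18 of the 20 sites had 0 methylated reads, with coverages of 13 to 21. The level over the run was 12.6% in Space GS cells 2, 5.48% in Space GS cells 1, and 0.238% to 1.11% in the others, while the other 11 sites of the region had 1.93% ± 0.915 in Space GS cells and 1.45% ± 0.785 in the Ground samples.

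Runs of equal counts were also seen at *Mcts2* and *H13*. At the 7 sites in *Mcts2*, 1 methylated read at 5 or 6 of the sites was the usual count in each Space sample, at coverages of 17 to 24, and 0 was the usual count in each Ground sample, at 21 to 26. At *H13*, Ground GS cells 1 had exactly 1 methylated read of 11 at all 7 sites, and Space GS cells 2 had 2 of 14 at 6 of 7. The table holds counts per site and not reads, so whether the same reads carried them was not tested. In an alternative chosen after seeing the data, with the median over the sites of a region taken as its value in each sample, 23 of the regions could be tested, 4 had a p under 0.05, against 5.89% of all regions, and the smallest adjusted p was 0.695.

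**Figure D3:**
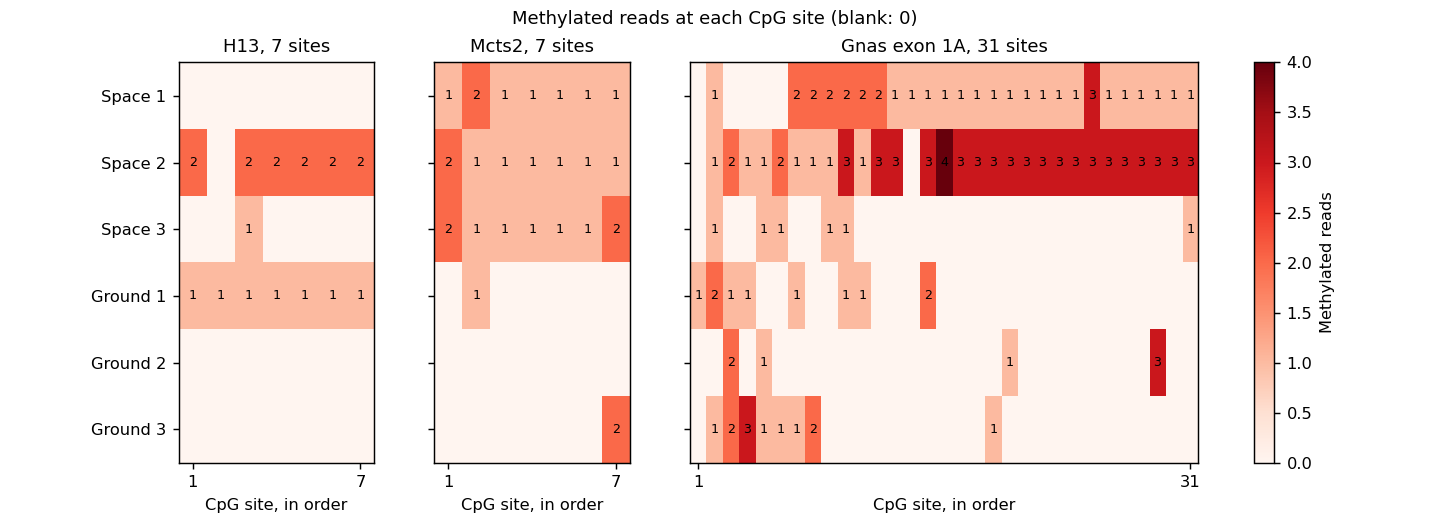
Number of methylated reads (colour and digits; blank, 0) at each CpG site in order along 3 regions, for *H13* (7 sites), *Mcts2* (7 sites), and *Gnas* exon 1A (31 sites), with 1 row per sample. Equal counts run along the sites in Space GS cells 2 and Ground GS cells 1 at *H13*, in the 3 Space samples at *Mcts2*, and in Space GS cells 1 and 2 at exon 1A.

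The largest rise among the 25 regions was 5.57 points, at *Mcts2*, and the largest fall -4.05 points, near *Gnasxl*. Of all regions of the series, 95% had an absolute difference of at most 5.95 points. Of the 28736 regions with a mean level under 10%, 95% had at most 3.49 points, and the rise at *Mcts2* was above the absolute difference of 98.8% of them. As it was the largest of the members, this place is a description.

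**Figure D4:**
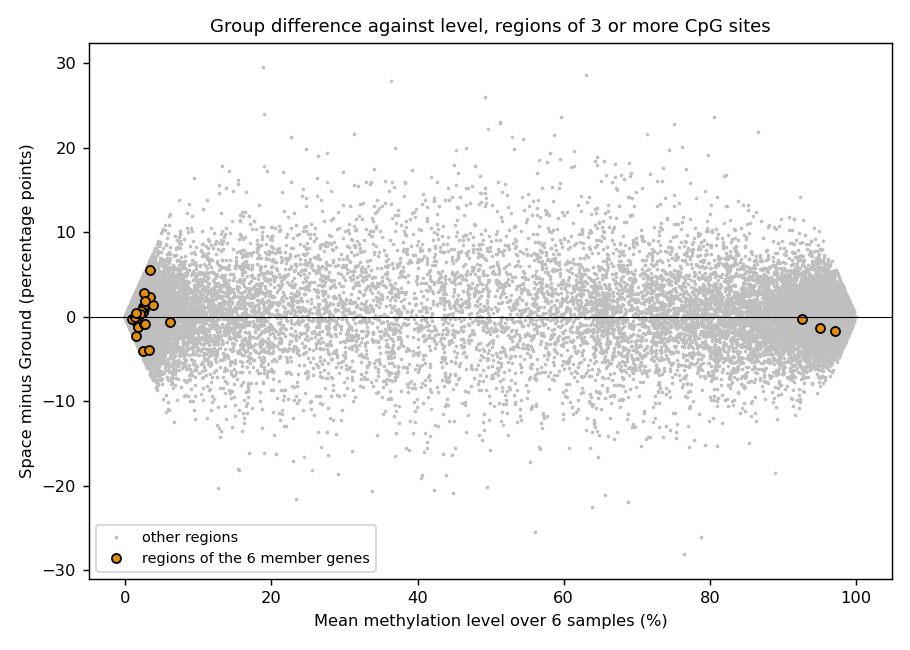
Space minus Ground (percentage points) against the mean level over 6 samples (%), for all regions of at least 3 sites (grey) and the 25 regions of the 6 genes (orange). The 25 regions sit at both ends of the level axis, between -4.05 and 5.57 points.

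Tests of promoters, the sites within 1 kb of the start, covered *H13*, *Mcts2*, *Nnat*, and *Gnas*. None of the 4 had an adjusted p under 0.05 (quasi-binomial test, adjusted over 14362 promoters), as for 0% of all promoters. None had an unadjusted p under 0.05, against 5.31% of all, and the smallest was 0.416. Of the single sites, 22 had a mean level between 5% and 95% and were tested. None had an adjusted p under 0.05, as for 0% of the 92042 sites tested, and none an unadjusted p under 0.05, against 5.61%. The smallest adjusted p was 0.951.

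The 5 sites with the largest difference between the group means were all low sites with 0% in the 3 Ground samples. A site of the exon 1A run, at chr2:174170468, was 9.11 points higher in Space GS cells, with 14.3%, 13.04%, and 0%. The *Mcts2* site 24 bases after the start was 9.01 points higher, with 4.17%, 11.1%, and 11.8%. The other 3 lay in the exon 1A run and were 7.38 to 8.16 points higher. These 5 sites were picked by their difference, and at 13 to 26 reads 1 read was worth at least 3.85 points.

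Next, the 4 promoters were set beside those of all genes. Their mean level over the 6 samples was 1.86% for *Mcts2*, 2.12% for *Gnas*, 3.13% for *Nnat*, and 3.75% for *H13*, against a median of 1.82% over 14374 promoters, of which 95.3% were under 10%. These levels were above those of 52.7%, 66.9%, 88.4%, and 91.5% of all promoters. The *H13* value rests on 7 sites in an intron, 493 to 618 bases after the start, with 11 to 17 reads. Its sample levels ran from 0% to 12.2%. The sources used here give no bisulfite conversion rate, so how far such low levels stand above unconverted reads was not tested. Of 27 other imprinted genes in clusters with an egg-set mark, 26 were listed in the table, and 20 had a promoter with enough sites, all of them under 10%, with a median of 1.68%. The highest were *Peg13* with 3.06% and *Peg3* with 2.85%. Some of the 20, such as *Igf2r*, *Commd1*, *Copg2*, *Herc3*, and *Trappc9*, do not carry the mark at their own promoter. Of 6 genes in clusters with a sperm-set mark, 3 had a promoter with enough sites: *Meg3* with 5.22%, *Rasgrf1* with 2.62%, and *Dlk1* with 2.11%. The sperm-set marks of these genes lie away from the promoters and were not read here.

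**Figure D5:**
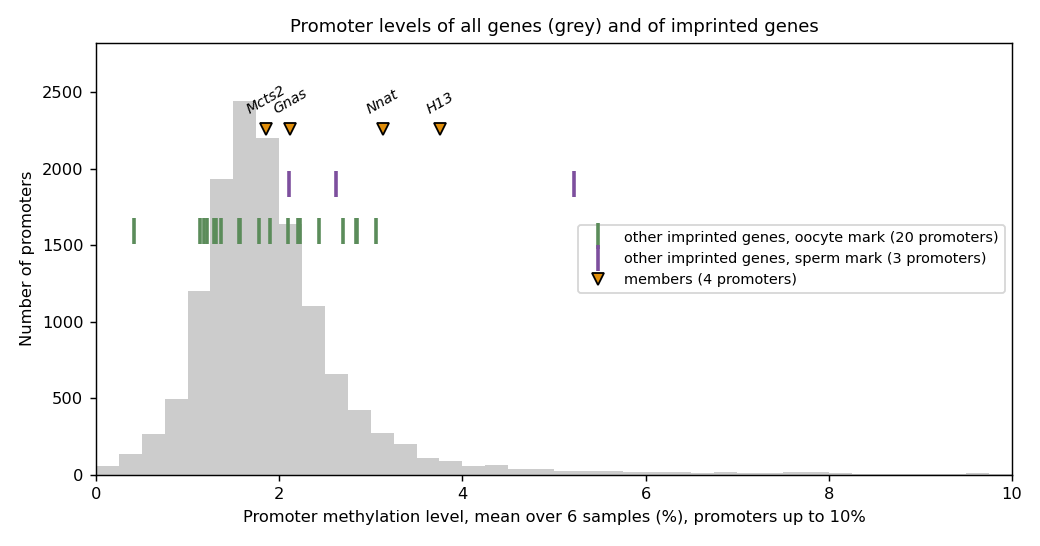
Number of promoters by methylation level (%, mean over 6 samples, shown up to 10%) for all genes (grey), with the 4 member genes (triangles) and other imprinted genes of clusters with an egg-set (oocyte) or sperm-set mark (ticks). The members lie at 1.86% to 3.75% and the 20 genes of the oocyte list at 0.420% to 3.06%.

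Cell identity could not be read from these promoters. The promoters of 7 of 8 germline genes, among them *Dazl* with 2.14% and *Ddx4* with 2.46%, and of 3 of 8 fibroblast genes, *Vim* with 1.24%, *Twist1* with 1.27%, and *Twist2* with 1.67%, were all under 10%. None had an adjusted p under 0.05 in either list, as for 0% of all promoters.

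The profile of each gene, its promoter level and its level after the promoter in the 6 samples, was compared with that of 5858 genes that had at least 3 sites in both places. *H13* was closest to *Sfxn5*, *Ppfia2*, and *Zfp385c*, with a root mean square difference of 3.11 to 3.30 points over the 12 values. *Mcts2* was closest to *Clk3*, *Zfp787*, and *Mtcl1* (1.57 to 1.90 points), and *Nnat* to *Spata5l1*, *Cnot11*, and *Cd24a* (1.28 to 1.50 points). The *Mcts2* level after the promoter mixes mostly high sites (77.9%) with the low sites of the last *H13* exon (1.41%). Its likeness is to this mixed value only. *Gnas* was closest to *B3gat2*, *Klf16*, and *5730409N16Rik* (0.759 to 0.845 points). A promoter under 10% with more than 80% after it, as at *H13*, was found in 37.4% of these genes, and both under 10%, as at *Nnat* and *Gnas*, in 21.2%.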

How the data were processed

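RRBS libraries were prepared from genomic DNA of 3 Space and 3 Ground samples. The submitters' processing notes name Trim Galore, Bismark 0.24.2, methylKit, and mm39, and their settings are not given in the sources used here. The deposited table gave, for each CpG site and sample, the read counts (coverage), the methylated percent, and the closest TSS with its gene. Coverage times percent gave whole methylated reads within 0.000266. Reads over all sites numbered 28535973 to 33743845 per sample, with a median coverage of 27 to 32 at the common sites.

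A site was used if each sample had at least 10 reads there. Within 1 kb of the TSS a site was counted as promoter, and otherwise as upstream or downstream. Levels are methylated over all calls, with 1 call per read and site, summed over sites. Gene and position values were compared by exact permutation tests with Benjamini-Hochberg adjustment, and regions (gap at most 100 bp, at least 3 sites), promoters, and sites with a mean of 5% to 95% by a quasi-binomial F test with dispersions moderated by limma 3.58.1 (R 4.3.3), adjusted over the whole table. Scripts were tested on simulated data. The value in the start column was taken as the position of the C, since at the same distance from the gene's start in GENCODE M21 (GRCm38) all 337 sites were CG. Exons and introns were read in the same way, and no coordinate was converted. The text names all 6 members and their regions, the 5 sites with the largest difference, and the 3 genes most like each member with sites in both positions. The members, lists, and position groups were chosen with earlier results of these data known. The replicate block was tried only as an alternative. Alternatives were coverage of 5 or 20, the mean of site levels, other windows and gaps, edgeR 4.0.16, a replicate block, leaving out each replicate, and, added after seeing the data, the median over a region's sites. Intervals and limits cover counting error only.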

Additional observations from a re-analysis of the deposited data

How the results depend on the processing

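No member region, promoter, or site had an adjusted p under 0.05 under any alternative run. Over the whole series the count was also 0 in nearly all runs. The exceptions were 4 of 43506 regions with the median, and single sites when a replicate was left out. These were 1 of 92017 without Space replicate 2, 3 of 92032 without Space replicate 3, and 5 of 91999 without Ground replicate 1. The number of member regions with an unadjusted p under 0.05 was 4 of 25, and 1 to 4 of 25 when each replicate was left out. It was 1 of 25 without Ground replicate 2 (5.51% of all regions) and 3 of 25 with edgeR (4.06%). At a coverage of at least 20 it was 2 of the 16 member regions left (5.90%). Several differences of the members turned direction. At a coverage of at least 5 the *Blcap* promoter difference was -3.44 points. At a coverage of at least 20 it was -0.71 for the *Mcts2* promoter and -2.56 for the *Nnat* promoter, and *Nnat* downstream minus promoter was 0.0976. With the mean of the site levels the *Gnas* promoter difference was 0.0634. A promoter window of 500 bp moved low *H13* sites into its downstream class, whose difference became 12.1. With this window *H13* downstream minus promoter was 46.3 points, and at a coverage of at least 20 *H13* had 0 sites. A window of 2000 bp brought the high sites before *Nnat* into its promoter, whose difference became -1.10.

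When each replicate was left out, the Space minus Ground difference ranged from -2.44 to 4.48 points for the *H13* promoter, from -1.18 to 0.855 for *H13* downstream, from -0.0527 to 1.15 for the *Mcts2* promoter, from -2.60 to 0.357 for *Nnat* upstream, and from -0.12 to 1.94 for the *Nnat* promoter. It ranged from -0.21 to 3.21 for *Nnat* downstream, from -2.30 to 3.03 for the *Blcap* promoter, from -0.55 to 0.153 for the *Gnas* promoter, and from -1.71 to 0.443 for *Gnas* downstream. Downstream minus promoter ranged from -0.34 to 0.683 for *Gnas*, from -1.26 (without Space replicate 1) to -0.23 (without Ground replicate 1) for *Nnat*, from 87.9 to 90.8 for *H13*, and from 16.6 to 18.0 for *Mcts2*. For the last 2 genes the direction held in each sample, and the exact sign-flip p became 0.0625, the smallest that 5 samples allow.

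Same-numbered samples had deviations from the group means that correlated at 0.0439, 0.0220, and 0.00988, and the other pairs at -0.0367 to 0.0146. Space GS cells 1 and 2 each correlated best with the same-numbered Ground sample, and Space GS cells 3 with Ground GS cells 2. The descriptions of same-numbered samples carry consecutive numbers, whose meaning is not given. As all correlations were small and no source names pairs, the numbers were not taken as pairs. With a replicate block, 0 member regions, promoters, or sites had an adjusted p under 0.05, as for 0 over the whole series. An unadjusted p under 0.05 was found for 2 of 25 member regions, against 5.06% of all regions. The paired differences equal the unpaired ones, such as 1.45 points for the *H13* promoter (exact sign-flip permutation p = 0.75). The member sites had 10 to 81 reads, so 1 methylated read moved a site by a point or more, and the smallest detectable difference was not estimated.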
